A study of Mus musculus with 6 samples.

Results

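The cells described here are the B cell class of the authors' annotation of single-cell RNA-sequencing (scRNA-seq) data from mouse liver tumors, taken by that class name alone. The class held 457 of 58794 annotated cells (0.777%) and was 1 annotated cluster among 10 cell classes. The tumors were formed by H22, a murine hepatocellular carcinoma (HCC) cell line placed in the liver of wild-type male C57BL/6J mice obtained at 8 weeks of age. Control mice (n = 3) carried the same tumor cells under standard housing, and stress mice (n = 3) had gone through a chronic stress protocol, which the study's methods give as 21 days of mild stressors that changed from day to day. Each mouse gave 1 library, so that a mouse is a replicate and its cells are not. The class held 20, 114 and 68 cells in control mice 1, 2 and 3 and 51, 93 and 111 cells in stress mice 1, 2 and 3, with a median of 7389.5, 2216 and 2892.5 unique molecular identifiers (UMIs, each a tag of 1 captured RNA molecule) per cell in the control mice and 4807, 5025 and 8897 in the stress mice. The barcodes of 5 B cells occurred in another library, and none was shared between B cells. All control libraries had been counted with Cell Ranger 9.0.0 and all stress libraries with 7.1.0 per the file headers, and the part of the software cannot be told apart from that of stress.

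B cells recognise antigen through a surface immunoglobulin that signals together with the Cd79a and Cd79b chains, and they present antigen to T cells on MHC class II. Naive cells carry IgM and IgD, and activated cells can switch to IgG, IgA or IgE and mature into plasma cells, which turn off much of the B cell program and devote their secretory pathway to antibody. In tumors, B-lineage cells are known as antigen-presenting cells, as sources of antibody and, in some settings, as sources of suppressive cytokines such as IL-10.

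The markers of the class were largely, but not everywhere, those of B cells. Of 9 B cell markers, among them Cd79a, Ms4a1, Ighm and Pax5, at least 3 were detected in 282 of the 457 cells (61.7%). Clustering the class without immunoglobulin and mitochondrial genes separated it into 4 groups of cells. The first held 217 cells (47.5%) with the markers of B cells and is called B-like. The second held 131 cells (28.7%) with plasma cell markers and is called plasma-like. The third held 75 cells (16.4%) with the markers of plasmacytoid dendritic cells (pDCs), the dendritic cells known for type I interferon, and is called pDC-like. The remaining 34 cells (7.44%) carried tumor cell markers beside immunoglobulin and were left without a name, and 11 of them (32.4%) were called doublets, against 1 of the B-like, 3 of the plasma-like and 2 of the pDC-like cells. These 34 cells had a median of 34162 UMIs and held 32.1% of all UMIs of the class, so that they weighed on every sum over the class out of proportion to their number. Plasma-like cells held 37.5% and B-like cells 18.1% of the UMIs of the class.

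**Figure D1:**
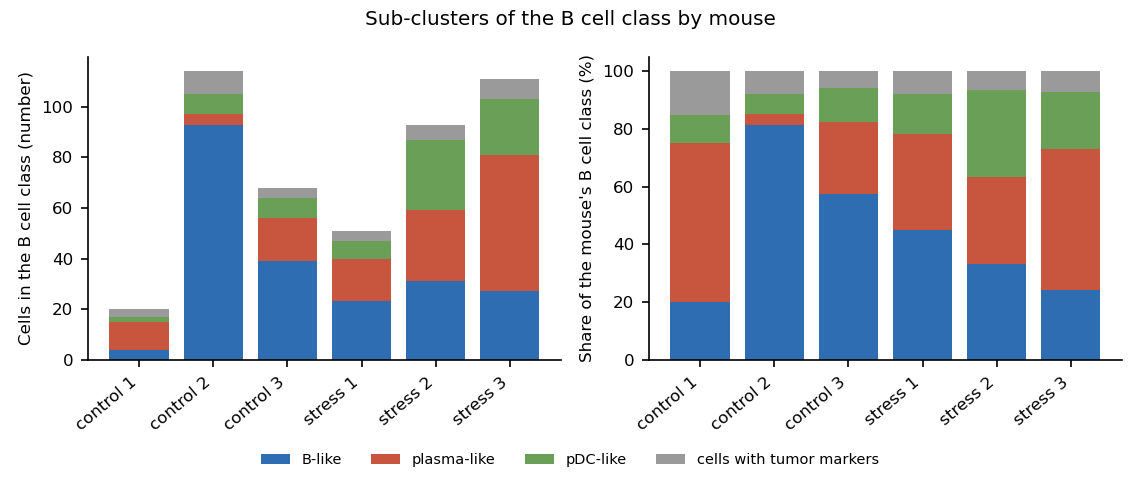
Cells of the B cell class by mouse, as numbers (left) and as a share of the mouse's class in percent (right), with 1 bar per mouse and colors for the B-like, plasma-like and pDC-like cells and the cells with tumor markers. B-like cells made up 20%, 81.6% and 57.4% of the class in the control mice and 45.1%, 33.3% and 24.3% in the stress mice.

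B-like cells expressed the antigen receptor chains and the transcription factors that maintain B cell identity. To compare cells of unequal depth, each cell was thinned to 1000 UMIs, which left out 7 cells. A UMI of Cd79a, the signaling chain of the antigen receptor, was then present in 77% of B-like cells (median 2326 UMIs before thinning) against 4% of pDC-like cells (median 5175 UMIs). For Ebf1, an early B-lineage transcription factor, the shares were 83.1% and 5.33%, and for Bank1, a B cell scaffold protein, 71.4% and 4%. Ms4a1, which encodes CD20, was found in 41.8% of thinned B-like cells, Pax5 in 30% and Ighd in 28.6%, and none of these 3 genes exceeded 1.56% in plasma-like or pDC-like cells. Cd83 and Cd86, surface proteins of activated antigen-presenting cells, were among the 10 leading genes and had a UMI in 52.6% and 48.4% of thinned B-like cells.

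Plasma-like cells were set apart by the secretory program. Jchain, which links the subunits of IgA and IgM, had a UMI in 99.2% of thinned plasma-like cells and in 0% of B-like cells. The plasma cell transcription factor Xbp1 was found in 55.5% and 1.41%, and Derl3, a component of endoplasmic reticulum-associated degradation, in 21.1% and 0%. Cd79a was kept in 18.8% of the plasma-like cells, while Pax5 and Ighd had no UMI in any thinned cell. Il10 had a UMI in 31.3% of plasma-like cells before thinning, with a median depth of 10427 UMIs, and in none of the 217 B-like cells (median 2326 UMIs), which allows a share of up to 1.38% of cells with a UMI. After thinning the shares were 4.69% and 0%. Epcam, an epithelial adhesion gene on the tumor list, had a UMI in 18% of thinned plasma-like cells and in 17.6% of the cells with tumor markers, whereas Krt18 was at 0% and 17.6%.

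The pDC-like cells carried pDC markers, and most B cell core genes were low in them. Siglech, a receptor of pDCs, had a UMI in 52% of them after thinning and in no thinned B-like or plasma-like cell, and Ccr9 and Cox6a2 were found in 52% and 41.3%. Tcf4, the transcription factor that maintains pDCs, was found in 81.3% against 30% of B-like cells. The cells were led by Ccl4, a chemokine that pDCs can secrete, followed by Tyrobp and Siglech. Ighm had a UMI in 49.3% of the thinned pDC-like cells and in 71.8% of the B-like cells, while Cd79b was at 1.33% and Ms4a1 at 0%. Ly6d, a surface protein gene of early lymphoid cells, was also frequent in the pDC-like cells, at 57.3% against 81.2% of B-like cells, and Spib, a transcription factor of B cells and pDCs, was at 17.3% against 5.63%. At least 3 of the 9 B cell markers were detected in 96.3% of B-like, 35.1% of plasma-like and 6.67% of pDC-like cells.

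**Figure D2:**
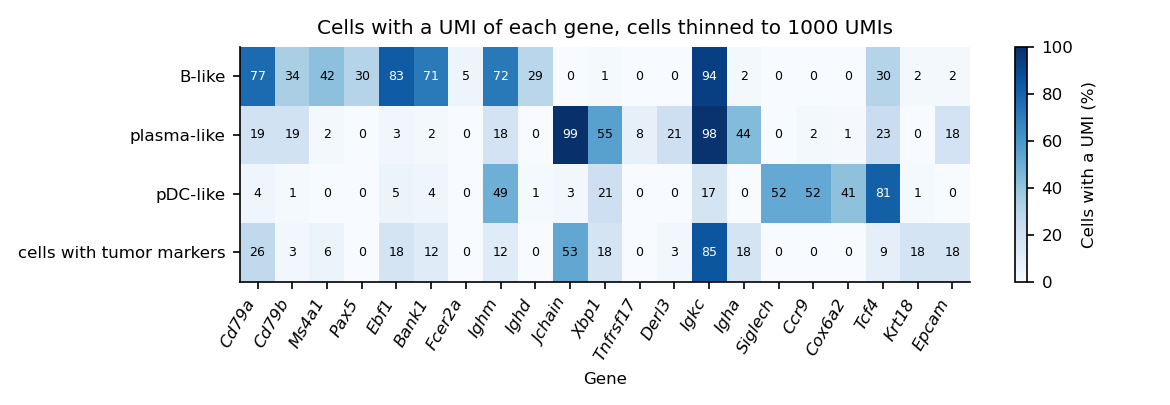
Percent of cells with at least 1 UMI of each marker gene (columns) in the 4 groups of the B cell class (rows), with every cell thinned to 1000 UMIs. Cd79a to Ighd stand high in B-like cells, Jchain to Igha in plasma-like cells and Siglech to Tcf4 in pDC-like cells, with Ighm shared between B-like (71.8%) and pDC-like cells (49.3%).

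Against the 9 other classes, the level of each gene was taken as CPM (a gene's UMIs scaled to the total UMIs of the class in a mouse) and averaged over the 6 mice. The class had been named from such genes, so these ratios are a description and were not tested. All 20 genes of the B cell core list were highest in the B cell class. Cd79a was at 389 ± 168 CPM (SD, n = 6), 129 times the next class, and Cd79b at 165 ± 45.4 CPM, 70.8 times the next. Ms4a1 reached 118 CPM (47.4 times), Pax5 66.7 CPM (122 times) and Ighd 52.7 CPM (199 times). Ebf1 stood out less, at 592 CPM and 11.2 times the next class, hepatic stellate cells (52.9 CPM). Cd37, a tetraspanin shared by leukocytes, was only 2.02 times above NK/T cells.

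Among 2814 genes at 50 CPM or more, immunoglobulin V genes left out, 90 were at least 2 times and 35 at least 10 times above every other class. The 15 with the highest ratios were mainly antibody genes and the machinery of plasma cells, namely Ighg2b, Ighg1, Iglc1, Jchain, Mzb1, Igkc, Igha, Ighg2c, Gm56536, Gm30211, Iglc2, Iglc3, Ighd, Derl3 and Pou2af1. Igkc reached 142121 ± 53507 CPM against 219 in the next class, endothelial cells. The antibody genes differed widely between mice. Ighg2b ranged from 26.4 CPM in control mouse 3 to 5682 CPM in stress mouse 1, and Ighg1 from 9.15 CPM in stress mouse 2 to 7745 CPM in control mouse 1. By contrast, Pou2af1, the B cell coactivator of octamer transcription factors, lay between 184 and 226 CPM in all 6 mice.

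Signaling and presentation genes separated the class less sharply. Of 12 activators of antigen receptor signaling, 4 were highest in B cells, and the ratio to the next class ran from 1.06 for the phospholipase Plcg2 to 18.5 for the adaptor Blnk. Of 10 MHC class II genes, 2 were highest in B cells, both of them coding for chains of accessory molecules: H2-DM, which edits the bound peptides, and H2-O, which restrains H2-DM. H2-Ob was at 72.3 CPM (3.17 times the next class) and H2-DMb2 at 86.1 CPM, level with dendritic cells at 86 CPM. The classical chain H2-Aa was at 1045 CPM, 0.418 times its level in dendritic cells. Receptors for the survival factors BAFF and APRIL were B cell-high, with Tnfrsf13c at 33.9 CPM (40.3 times the next class), Tnfrsf17 at 28.9 (90.4 times) and Tnfrsf13b at 80.1 (3.69 times). Of the germinal center list, 2 of 8 genes (Rgs13 and Mef2b) were highest in B cells. Of 11 glucocorticoid response genes, Tsc22d3 alone was highest in B cells, at 274 ± 163 CPM and 1.33 times the next class. Of 8 pDC markers, 6 were highest in the class, which holds the pDC-like cells and expresses the shared B cell marker Ly6d, with Siglech at 72.5 CPM (36.8 times the next class).

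The antibody classes of the B-like and plasma-like cells differed. Each cell was given the heavy-chain constant gene with the most UMIs. A tie went to the first in the order Ighm, Ighd, Ighg1, Ighg2b, Ighg2c, Ighg3, Igha and Ighe, and ties were not counted apart. Of the 217 B-like cells, 175 (80.6%) carried Ighm (the constant region of IgM, chr12:113418558-113422730, GRCm38) and 11 (5.07%) Ighd, 25 (11.5%) carried a switched isotype, and 6 had no heavy-chain UMI. Of the 25 switched cells, 12 came from the 31 B-like cells of stress mouse 2, and without that mouse the share was 13 of 186 (6.99%). Of the 131 plasma-like cells, 52 (39.7%) carried Igha, the mucosal isotype (chr12:113254830-113260236), and 47 (35.9%) Ighg2c (chr12:113285325-113288932). A further 12 carried Ighg1, 10 Ighg2b, 2 Ighg3 and 8 (6.11%) Ighm, so that 93.9% had switched. Ighe led in no cell. The median number of heavy-chain UMIs was 5 per B-like cell, 645 per plasma-like cell and 3 per pDC-like cell, and 64 of the 75 pDC-like cells (85.3%) were led by Ighm.

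Light chains were mostly kappa, as is usual in mice. Lambda UMIs outnumbered kappa in 10 of 215 B-like cells with light-chain UMIs (4.65%, exact 95% confidence interval 2.25% to 8.39%) and in 3 of 131 plasma-like cells (2.29%, 0.475% to 6.55%). Among pDC-like cells the share was 37 of 57 (64.9%), resting on a median of 1 lambda and 0 kappa UMIs per cell. These intervals cover counting error only and treat cells of different mice alike.

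**Figure D3:**
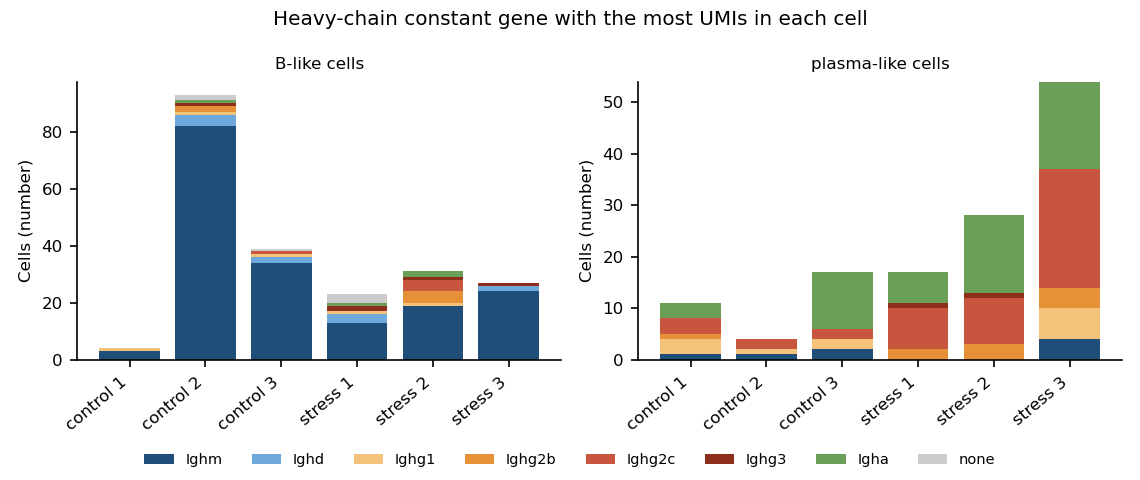
Number of B-like cells (left) and plasma-like cells (right) per mouse, with 1 bar per mouse, colored by the heavy-chain constant gene with the most UMIs in the cell. Ighm led in 175 of the 217 B-like cells, and Igha (52 cells) and Ighg2c (47 cells) led in most of the 131 plasma-like cells.

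No single antibody dominated the plasma-like cells. Pairing the heavy V gene and the kappa V gene with the most UMIs (at least 3 each) gave 94 distinct pairs, of which 5 occurred in 2 or more mice. In stress mouse 3, with 54 plasma-like cells the fullest sample, 48 cells had a pair and these made 38 distinct pairs. The most frequent, Ighv1-80 with Igkv12-46, was found in 3 cells of that mouse. In the other mice no pair was found in more than 2 cells. V genes are near-identical copies of each other, so a V gene call is uncertain.

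The next question was whether stress changed how many B cells the tumors held. The class made up 0.19, 0.97 and 0.735% in the control mice and 0.705, 0.985 and 1.05% in the stress mice. Control mouse 1 was the lowest of all and the other 5 mice overlapped, and the means of 0.632 ± 0.4% and 0.913 ± 0.183% (SD, n = 3 each) gave p = 0.4 in a two-sided exact permutation test. With 3 mice against 3, that test cannot give less than 0.10. Without control mouse 1 the difference of 0.281 percentage points shrank to 0.0606. As a share of immune cells, the class came to 2.37 ± 0.604% in control and 2.92 ± 0.845% in stress mice (exact permutation p = 0.5), and as a share of lymphocytes (B and NK/T cells) to 22.4 ± 11.1% and 14.7 ± 3.92% (exact permutation p = 0.5). Both overlapped between the groups. The immune-cell difference of 0.55 percentage points shrank to 0.069 without stress mouse 1 and to 0.229 without control mouse 1, and without control mouse 3 the lymphocyte difference shrank from -7.76 to -1.43 percentage points.

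Within the class, pDC-like cells took a larger share in every stress mouse than in any control mouse. Their share of the class was 10, 7.02 and 11.8% in the control mice and 13.7, 30.1 and 19.8% in the stress mice, a difference of 11.6 percentage points that did not overlap (exact permutation p = 0.10, the smallest possible, and 0.3 after adjustment over the 3 shares). Taken over immune cells, the share was 0.172, 0.205 and 0.289% in the control mice and 0.532, 0.776 and 0.454% in the stress mice, again without overlap (exact permutation p = 0.10). The B-like share, 53 ± 31% in control and 34.3 ± 10.4% in stress mice (exact permutation p = 0.5), and the plasma-like share, 27.8 ± 25.9% and 37.4 ± 9.91% (exact permutation p = 0.6), overlapped. Control mice 1 and 2 held the extremes of both, with 11 plasma-like of 20 cells in the one and 4 of 114 in the other, and without control mouse 2 the plasma-like difference turned from 9.53 to -2.64 percentage points and the B-like difference shrank from -18.7 to -4.42. Without control mouse 1 they were 23.1 and -35.2, and without stress mouse 3 the plasma-like difference was 3.88. The pDC-like difference fell to 7.18 percentage points without stress mouse 2. Over immune cells, the plasma-like share was 0.555 ± 0.426% in control and 1.06 ± 0.262% in stress mice, with overlap (exact permutation p = 0.2). That difference of 0.507 percentage points ranged over 0.281 to 0.704 when each mouse was left out.

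The isotype makeup of the class was not distinguishable between the groups. The share of cells in which switched isotypes outnumbered IgM and IgD UMIs was 70, 9.65 and 26.5% in the control mice and 49, 48.4 and 53.2% in the stress mice (exact permutation p = 0.4, adjusted p = 0.6 over 3 shares), the control mice spanning the stress mice on both sides. The difference of 14.8 percentage points was 32.1 without control mouse 1 and 1.95 without control mouse 2. Without the pDC-like cells it was 23.6 (exact permutation p = 0.4). IgD took 2.54 ± 2.91% of IgM and IgD UMIs in control and 4.54 ± 5.52% in stress mice (exact permutation p = 0.7), a difference that turned to -1.19 percentage points without stress mouse 1. Lambda-led cells made up 0, 10 and 4.69% in the control mice and 12, 21.6 and 11.2% in the stress mice, without overlap (exact permutation p = 0.10, adjusted p = 0.3), but without the pDC-like cells the difference of 10 percentage points became -0.127 (exact permutation p = 0.9). Among plasma-like cells, Igha led in 27.3, 0 and 64.7% in the control mice and 35.3, 53.6 and 31.5% in the stress mice (exact permutation p = 0.7). The 0% of control mouse 2 rests on 4 cells, and the difference of 9.46 percentage points turned to -5.87 without that mouse, grew to 26.5 without control mouse 3 and was 2.73 without stress mouse 2. Ighg2c led in 27.3, 50 and 11.8% in the control mice and 47.1, 32.1 and 42.6% in the stress mice (exact permutation p = 0.5), with differences of 1.96 to 21.1 percentage points when each mouse was left out.

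Gene expression under stress was tested on UMIs summed per mouse with edgeR's quasi-likelihood test, with adjusted p-values (Benjamini-Hochberg) over all genes tested and a threshold of 0.05. Over the whole class, 28 of 5796 genes passed (0.483%), 18 higher (0.311%) and 10 lower (0.173%) in stress mice, beside 646 genes (11.1%) at an unadjusted p under the threshold. The CPM of all stress mice lay above that of all control mice for 5.43% of the genes tested and below it for 8.54%. None of the 18 tested B cell core genes passed, but without control mouse 1 Bank1, Blk, Cd37, Fcmr and Pax5 did, all 5 lower. With all mice kept, Cd37 was called lower by DESeq2 and with immunoglobulin genes left out, and 6 core genes were called lower without the filter on low counts, where 97 of 17717 genes were called lower. In the edgeR fit of all mice the log2 fold changes of the 18 had a median of -0.58, against -0.00 over all genes tested. Of the 18, 15 lay below 0, against 2918 of all 5796 genes. On the same sums the median was 0.47 for the plasma cell list (8 of 10 above 0). It was 0.60 for the immunoglobulin constant genes (7 of 11) and 0.76 for the pDC list (7 of 8). No gene of these lists passed, and the part of the mix of cells was not tested. Of the 18 genes that rose, 6 (Cmss1, Lars2, Gphn, Cdk8, Camk1d and Gm19951) form a list that had been drawn up from these libraries as raised in every cell class, so their rise is no independent evidence about B cells. In the B cell class their log2 fold changes ran from 2.77 for Camk1d to 3.40 for Lars2.

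The chaperone genes Hspa1b, Hspa1a and Dnajb1 were among the others that rose, and no list of chaperones was tested. Hspa1b, an inducible HSP70 chaperone (chr17:34956436-34959238), was at 14.2, 24.1 and 19.8 CPM in the control mice and 113, 105 and 153 CPM in the stress mice. Every stress mouse stood above every control mouse (log2 fold change 2.73 ± 0.33 (SE), adjusted p = 0.00362). Hspa1b passed the filter on low counts only through the stress mice, where it was high, so its call lends no support to a change. Its near-identical neighbour Hspa1a, from which reads cannot be told apart with certainty, was at 56.9, 26 and 41.7 CPM in the control mice and 181, 144 and 147 CPM in the stress mice (log2 fold change 2.08 ± 0.34 (SE), adjusted p = 0.0262). In B-like cells Hspa1b was at 105 CPM in stress mouse 1 and at 0 to 14.6 CPM in the other 5 mice, and neither gene passed the filter on low counts there. The HSP40 cochaperone Dnajb1 rose in the class (log2 fold change 1.43, adjusted p = 0.0227), but in B-like cells alone its log2 fold change was -0.91 (adjusted p = 0.481). Hspa1a and Dnajb1 did not pass without control mouse 3 or without any 1 of the stress mice, and Hspa1b did not pass without control mouse 3 (adjusted p = 0.0552). Without called doublets Hspa1a and Dnajb1 did not pass either (adjusted p = 0.0877 and 0.163). In cells with 3 or more of the 9 B cell markers none of Hspa1b, Hspa1a and Dnajb1 was called (adjusted p = 0.470 for Dnajb1). Hspa1b lost its call in 3 of the 16 alternatives that could be run for it, with adjusted p up to 0.224.

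Ptafr, Gab2 and Antxr2 rose over the class and were highest in the pDC-like cells. Ptafr, the receptor of platelet-activating factor, was at 4.75, 9.27 and 2.2 CPM in the control mice and 35.2, 40.5 and 25.7 CPM in the stress mice over the class (log2 fold change 2.60 ± 0.46 (SE), adjusted p = 0.0419). Ptafr passed the filter on low counts only through the stress mice, where it was high, so its call lends no support to a change. The adaptor Gab2 and the anthrax toxin receptor Antxr2 each had a log2 fold change of 1.45 (adjusted p = 0.0419 for both). Within the pDC-like cells the mean level of Antxr2 was 172 ± 122 CPM for control and 757 ± 169 CPM for stress mice (SD, n = 3 each), that of Gab2 163 ± 133 against 489.6 ± 45.4 CPM, and that of Ptafr 50.7 ± 38.9 against 221 ± 116 CPM. These control means rest on 2, 8 and 8 pDC-like cells in control mice 1, 2 and 3, and the differences within pDC-like cells were not tested. The class test that picked the 3 genes had used these same cells. In plasma-like cells Antxr2 did not pass (adjusted p = 0.411). The share of pDC-like cells was higher in stress mice without overlap, and its part in these 3 genes was not tested. None of the 3 passed when any 1 mouse was left out, controls included.

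The linker histone genes H1f2, H1f3 and H1f4, copies of a gene family whose reads may be split between members, rose with log2 fold changes of 1.65, 2.99 and 1.88, and the mitochondrial gene mt-Atp8 with 1.84. Ighv1-64 and Ighv1-80 had no UMI in any control mouse, and were at 32.8, 28.7 and 32.1 and at 46.9, 40.5 and 113 CPM in the stress mice. For these V genes no fold is given. Each passed the filter on low counts only through the stress mice, where it was high. Their calls, which stay in the count of genes that rose, therefore lend no support to a change. H1f2 and H1f4 lost their call when any 1 mouse was left out, H1f3 without control mouse 2, control mouse 3, stress mouse 1 or stress mouse 3, and mt-Atp8 without control mouse 3 alone. Ighv1-64 lost it without control mouse 3 or any stress mouse, and Ighv1-80 without control mouse 2, control mouse 3 or stress mouse 1.

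Of the 10 genes that fell, Fcrl1 is a B cell gene, an Fc receptor-like coreceptor of the antigen receptor. It was at 33.2, 59.3 and 50.5 CPM in the control mice and 14.1, 15.7 and 10.4 CPM in the stress mice. Every stress mouse lay below every control mouse (log2 fold change -1.82 ± 0.32 (SE), adjusted p = 0.0419). Fcrl1 passed the filter on low counts only through the control mice, where it was high, so its call lends no support to a change. Nudcd3, a cochaperone, fell from 388 ± 42.5 to 123 ± 27.5 CPM (adjusted p = 0.0145), and Map7, a microtubule-associated protein, and Tecpr2, an autophagy gene, fell with log2 fold changes of -1.57 and -1.43. Gm2000, Rpl9-ps6, Rps27rt, Rpl37rt and Wdr89, which are copies or overlap copies of ribosomal protein genes and so uncertain in their counts, and the unnamed gene ENSMUSG00000121769 made up the rest. The 10 genes lower in stress all lost their call without control mouse 3, and likewise without any 1 of the stress mice, when 0 genes were called lower. Map7, Tecpr2, Wdr89, Rpl37rt and ENSMUSG00000121769 also lost it without control mouse 1, and Fcrl1, Tecpr2 and Rpl37rt without control mouse 2. The whole-class count fell to 6 when control mouse 3 was left out, all of them higher and all among the genes raised in every cell class. It fell to 9 when stress mouse 1 was left out and to 12 when stress mouse 2 or 3 was. It rose to 40 without control mouse 1, with 17 higher and 23 lower, and to 33 without control mouse 2, with 12 higher and 21 lower. With DESeq2, Fcrl1, Gab2 and Rpl37rt did not pass. The count was 10 without called doublets, 13 without the cells with tumor markers and 8 with B-like and plasma-like cells only, the last 2 alternatives having been added after the data were seen.

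**Figure D4:**
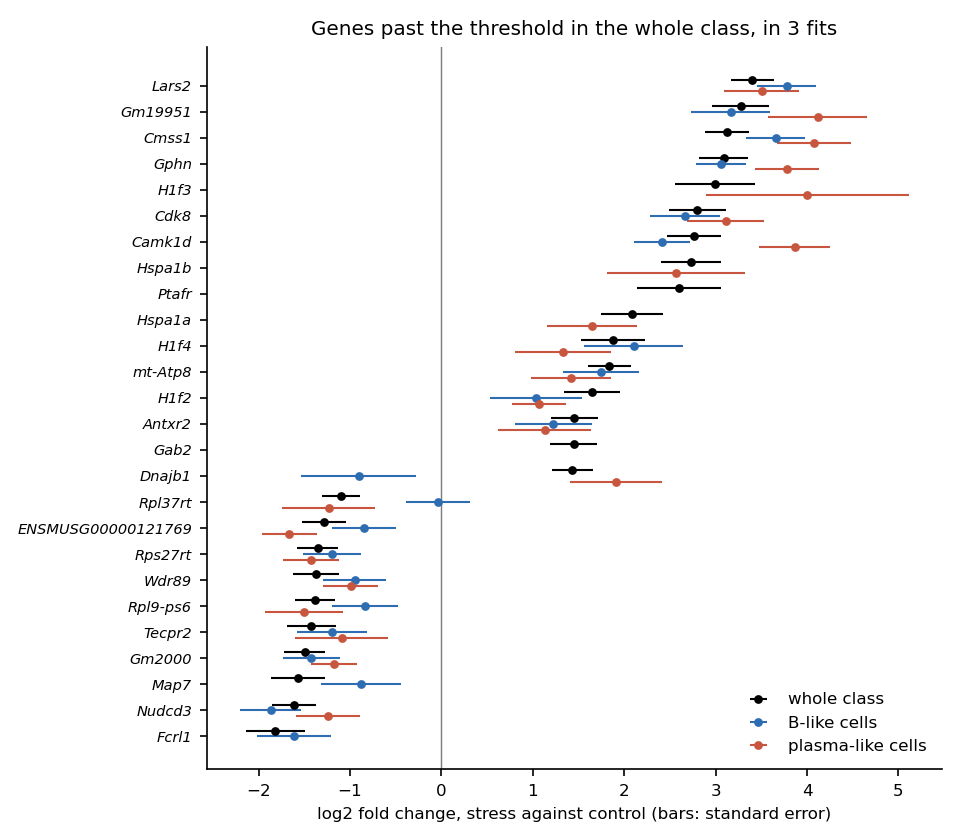
Log2 fold change of stress against control mice (points, bars for the standard error) for the genes that passed in the whole class, V genes left out, in the whole class, the B-like and the plasma-like cells, where a gene could be tested. The 6 genes raised in every cell class lie above 0 in all 3 fits, and Dnajb1 lies on opposite sides of 0 in B-like (-0.91) and plasma-like cells (1.91).

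B-like cells were then tested alone, with control mice 2 and 3 (93 and 39 cells) against stress mice 1, 2 and 3 (23, 31 and 27 cells). Control mouse 1 held 4 B-like cells and was left out. Where control mouse 2 or 3 is left out as well, 1 control mouse remains, and the fit then takes the spread from the stress mice alone and assumes that the lone control varies like them. The same holds for control mice 1 and 3 in the plasma-like fit. Both fits were added after the groups of cells had been seen. Of 2657 genes tested, 79 passed (2.97%), 33 higher (1.24%) and 46 lower (1.73%) in stress mice, beside 479 (18%) at an unadjusted p under the threshold. The groups did not overlap for 13.9% of the genes tested with stress higher and for 18.9% with stress lower. Members of the activation, glucocorticoid response and mature follicular lists were among the genes that fell, and Hsph1, Bcl2a1d and Cd44 among those that rose. The calls shared with the whole class were 12 genes, 42.9% of the 28 and 15.2% of the 79.

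Fos, the AP-1 transcription factor that cells switch on within minutes of a stimulus, fell with the largest change of all 46 genes. In B-like cells it was at 508 and 563 CPM in control mice 2 and 3 and 70.2, 79.8 and 95.1 CPM in the stress mice. Both control mice lay far above all stress mice, and control mouse 1, outside the fit, was at 324 CPM. The change (log2 fold change -2.59 ± 0.35 (SE), adjusted p = 4.22e-06) passed in all 12 alternatives, with adjusted p from 1.42e-09 to 0.000996. Its AP-1 partners fell too. Junb was at 1679 and 1898 CPM in control mice 2 and 3 and 1071, 611 and 819.6 CPM in the stress mice, and the groups did not overlap (log2 fold change -1.07 ± 0.26 (SE), adjusted p = 0.0183). Jun had a log2 fold change of -1.38 (adjusted p = 0.0289), and Ier2, another immediate-early gene, of -1.22 (adjusted p = 0.0289). Junb and Jun did not pass when any 1 of control mice 2 and 3 and stress mice 2 and 3 was left out, with adjusted p up to 0.137 and 0.201, and Ier2 did not without control mouse 2, control mouse 3 or stress mouse 3 (up to 0.251). Ier2 was also lost with all 6 mice and with DESeq2, and Jun without the filter on low counts.

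Tsc22d3, which encodes the glucocorticoid-induced leucine zipper and is a standard readout of glucocorticoid exposure (chrX:140539528-140600659), fell in B-like cells. It was at 640.5 and 949 CPM in control mice 2 and 3 and 351, 133 and 80.5 CPM in the stress mice. The lowest control value was above the highest stress value, that of stress mouse 1, and control mouse 1 was at 486 CPM. The change was large (log2 fold change -2.22 ± 0.38 (SE), adjusted p = 0.000233) and passed in 11 of 12 alternatives, the exception being DESeq2 (adjusted p = 0.101). Dusp1, a phosphatase that ends MAP kinase signaling and is induced by glucocorticoids and by immediate-early stimuli alike, was at 285 and 232 CPM in control mice 2 and 3 and 140.4, 46.5 and 80.5 CPM in the stress mice (log2 fold change -1.68 ± 0.37 (SE), adjusted p = 0.00789). It did not pass without control mouse 2, stress mouse 2 or stress mouse 3. Of the 5 glucocorticoid response genes tested, Tsc22d3, Dusp1 and Cxcr4, which the homing list also holds, fell and none rose, with a median log2 fold change of -1.15. Over all genes tested the median was 0.03 and 1.73% were called lower.

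The promoters of Fos and Dusp1 are shown because both genes are classical targets of the cAMP response element (CRE), whose core is TGACGT, and both fell in the same cells. The sequences are from RefSeq (GRCm38.p6), 250 bases before to 50 after the start, with capitals for TGACGT and its reverse complement ACGTCA. The Fos window lies on the plus strand at chr12:85473640-85473939 and the Dusp1 window on the minus strand at chr17:26508423-26508722.
Fos: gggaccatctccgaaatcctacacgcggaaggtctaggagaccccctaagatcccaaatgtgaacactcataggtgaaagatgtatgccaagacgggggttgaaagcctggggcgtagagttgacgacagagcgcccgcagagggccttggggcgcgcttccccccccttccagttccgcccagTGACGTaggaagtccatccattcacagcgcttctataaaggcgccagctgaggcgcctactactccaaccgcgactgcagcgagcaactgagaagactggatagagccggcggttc
Dusp1: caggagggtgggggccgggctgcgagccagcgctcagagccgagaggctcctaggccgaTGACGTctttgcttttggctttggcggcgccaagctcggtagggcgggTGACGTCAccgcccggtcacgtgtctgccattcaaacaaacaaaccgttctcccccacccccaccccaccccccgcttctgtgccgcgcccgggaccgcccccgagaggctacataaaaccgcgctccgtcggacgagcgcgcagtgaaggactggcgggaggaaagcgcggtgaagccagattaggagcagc
Fos holds the core 1 time and Dusp1 3 times, counting both strands, where the cores on the 2 strands of Dusp1's second site overlap. The core was found in 3 of 36 genes that fell and had a promoter in the table (8.33%; Dusp1, Fos and Nudcd3) and in 1 of 24 that rose (4.17%; Cmss1), against 345 of 2107 genes tested in B-like cells (16.4%) and 7.51% of all 32851 promoters. These are matches of letters, not measured binding.

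Of the mature follicular list, 2 of 9 tested genes fell and none rose, with a median of -0.38. Of all 2657 genes tested, 1.73% were called lower and 1276 had log2 fold changes below 0. Klf2, a transcription factor that keeps lymphocytes quiescent and recirculating, was at 1286 and 1026 CPM in control mice 2 and 3 and 878, 306 and 227 CPM in the stress mice, and Foxo1, which acts with it, at 541 and 331 CPM in control mice 2 and 3 and 228, 86.4 and 212 CPM in the stress mice. In both genes stress mice lay below control mice, Klf2 with stress mouse 1 closest to the controls. The log2 fold changes were -1.40 ± 0.34 (SE, adjusted p = 0.0183) and -1.37 ± 0.35 (adjusted p = 0.0255). Inpp5d, the SHIP1 phosphatase that restrains antigen receptor signaling, was at 1077 and 1049 CPM in control mice 2 and 3 and 562, 399 and 366 CPM in the stress mice (log2 fold change -1.25 ± 0.28 (SE), adjusted p = 0.00794). It was the 1 inhibitor of 5 that passed, with 4 of 5 below 0 and a median of -0.39. The 12 activators of antigen receptor signaling lay alike, with 10 of 12 below 0 and a median of -0.38, and 0 of 12 passed. Klf2, Foxo1 and Inpp5d all lost their call without control mouse 2 (adjusted p = 0.208, 0.411 and 0.104) and without stress mouse 3 (0.217, 0.0828 and 0.111), and Foxo1 also without stress mouse 2 (0.146). With DESeq2, Klf2 and Foxo1 did not pass (adjusted p = 0.383 and 0.0931), and with all 6 mice Inpp5d did not (0.0529).

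The activation list held 3 genes that fell and none that rose. Of 8 tested members all had log2 fold changes below 0 (median -0.56), and Fos, Junb and Cd69 fell. Over all genes tested, 1.73% were called lower and 1276 of 2657 had log2 fold changes below 0. Cd69, an early activation marker that retains lymphocytes in tissue, was at 584 and 419 CPM in control mice 2 and 3 and 228, 259 and 124 CPM in the stress mice (log2 fold change -1.27 ± 0.33 (SE), adjusted p = 0.0255), and it did not pass without control mouse 2 or stress mouse 3, with all 6 mice or with DESeq2. Of 10 tested homing genes, Cxcr4 fell and Cd44 rose. Cxcr4, the receptor of the bone marrow and stromal chemokine CXCL12, was at 427 and 464 CPM in control mice 2 and 3 and 281, 139.6 and 190.3 CPM in the stress mice (log2 fold change -1.15 ± 0.33 (SE), adjusted p = 0.0473). Without any 1 of control mice 2 and 3 and stress mice 2 and 3 it did not pass, nor with all 6 mice, without the filter on low counts or with DESeq2. Cd44, the hyaluronan receptor that rises on antigen-experienced lymphocytes, was at 114 and 209.7 CPM in control mice 2 and 3 and 351, 366 and 454 CPM in the stress mice, every stress mouse above both control mice (log2 fold change 1.45 ± 0.36 (SE), adjusted p = 0.0183). It did not pass without control mouse 2 or stress mouse 3 (adjusted p = 0.359 and 0.113).

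**Figure D5:**
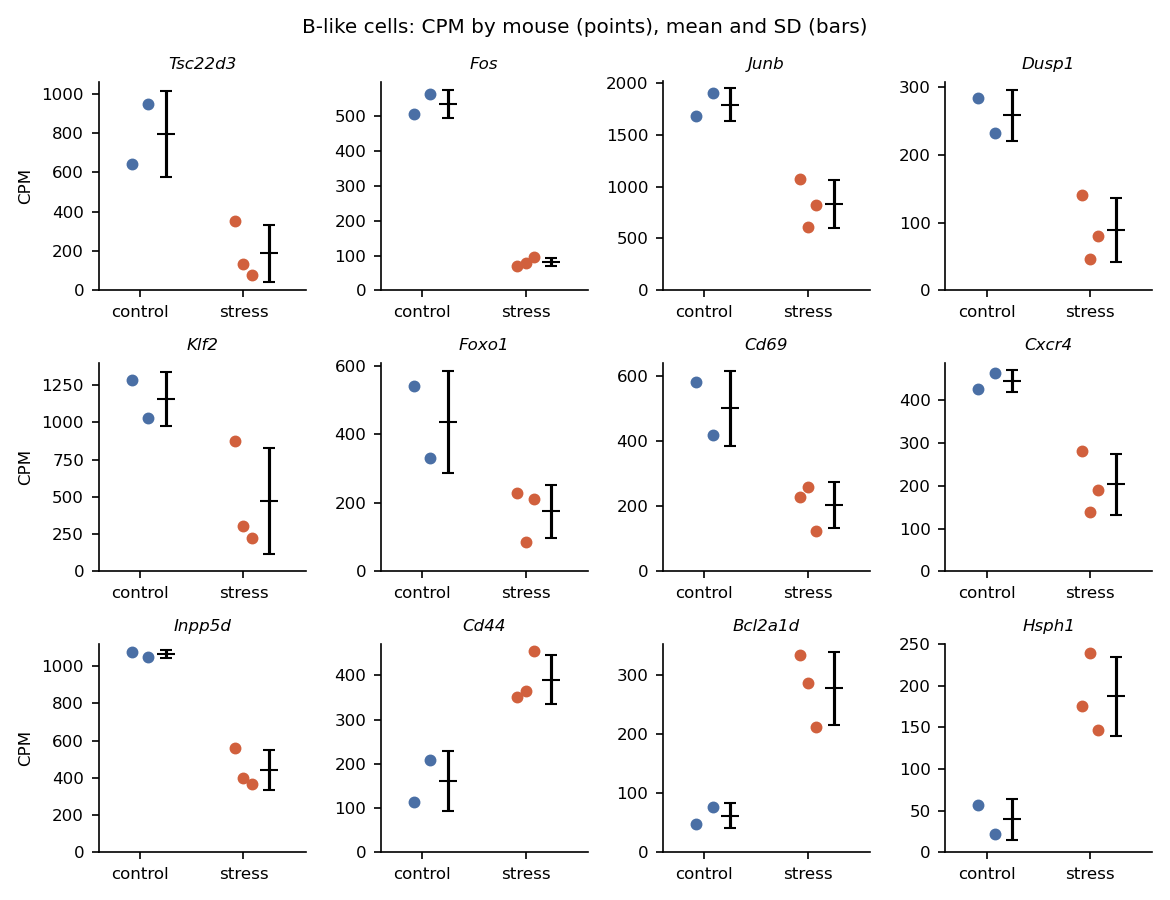
CPM of 12 genes in B-like cells summed per mouse (points, control mice 2 and 3 in blue, stress mice 1 to 3 in orange), with the mean and SD as bars and the vertical axes starting at 0. The 9 genes Tsc22d3, Fos, Junb, Dusp1, Klf2, Foxo1, Cd69, Cxcr4 and Inpp5d lie lower and Cd44, Bcl2a1d and Hsph1 higher in every stress mouse than in both control mice.

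Hsph1 and Bcl2a1d were among the 33 genes that rose, while none of 6 tested genes of the survival list passed. Hsph1, an HSP110 chaperone, was at 56.9 and 22.1 CPM in control mice 2 and 3 and 176, 239 and 146 CPM in the stress mice (log2 fold change 2.11 ± 0.43 (SE), adjusted p = 0.00265) and passed in all 11 alternatives that could be run. Hsph1 passed the filter on low counts only through the stress mice, where it is high, so its passing in these alternatives is no support for a change. Hsp90aa1 rose by 1.21 on the log2 scale (adjusted p = 0.0289) and Hspe1, a subunit of the mitochondrial chaperonin, by 1.17 (adjusted p = 0.0243). Bcl2a1d, an antiapoptotic BCL2 relative with close copies that make its count uncertain, was at 47.4 and 77.3 CPM in control mice 2 and 3 and 333, 286 and 212 CPM in the stress mice (log2 fold change 2.28 ± 0.40 (SE), adjusted p = 0.000468). Its call was lost only without control mouse 2, where its log2 fold change was 1.85. Bcl2a1d passed the filter on low counts only through the stress mice, where it is high, so its call lends no support to a change. Odc1, the rate-limiting enzyme of polyamine synthesis, rose with a log2 fold change of 2.13 but did not pass with DESeq2 (adjusted p = 0.155), and Pycard, the inflammasome adaptor, rose with one of 1.71. Plac8 and Rpl10 rose from 1117 ± 144 to 2721 ± 292 CPM and from 693 ± 12.6 to 1920.1 ± 219 CPM (SD, n = 2 and 3), and mt-Co1, mt-Nd2, mt-Nd4l and mt-Atp8 rose with log2 fold changes of 0.80 to 1.75. Plac8, which codes for a small cysteine-rich protein, and Rpl10, a ribosomal protein gene, passed in all 12 alternatives. Pycard lost its call without control mouse 2, and mt-Atp8 without control mouse 2 or stress mouse 3. Hsp90aa1 lost it without control mouse 3, stress mouse 2 or stress mouse 3. Hspe1, mt-Co1 and mt-Nd2 lost it when any 1 of control mice 2 and 3 and stress mice 2 and 3 was left out, and mt-Nd4l without control mouse 2 or control mouse 3. With all 6 mice mt-Atp8 and mt-Nd4l were lost, and without the filter on low counts mt-Atp8 and mt-Co1.

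Among the other genes with large changes in B-like cells, Mideas, which codes for a component of histone deacetylase complexes, was at 389 and 397 CPM in control mice 2 and 3 and 87.8, 46.5 and 109.8 CPM in the stress mice (log2 fold change -2.23 ± 0.37 (SE), adjusted p = 0.000162). Both control mice stood above all stress mice, control mouse 1 was at 567 CPM from 7 UMIs, and Mideas passed in all 12 alternatives. Nudcd3, the cochaperone that also fell over the whole class, was at 441 and 563 CPM in control mice 2 and 3 and 105, 159.5 and 109.8 CPM in the stress mice (log2 fold change -1.87 ± 0.33 (SE), adjusted p = 0.000506). It too passed in all 12 alternatives, without overlap of the groups, and control mouse 1 was at 729 CPM. Plxdc2, a transmembrane protein gene, was at 232 and 199 CPM in control mice 2 and 3 and 87.8, 53.2 and 29.3 CPM in the stress mice (log2 fold change -2.04 ± 0.40 (SE), adjusted p = 0.00182), and it lost its call without control mouse 2 (adjusted p = 0.152) or stress mouse 3 (adjusted p = 0.0828). In B-like cells Plxdc2 passed the filter on low counts only through the control mice, where it was high, so that call lends no support to a change. Plxdc2 was also called lower in plasma-like cells (log2 fold change -1.94 ± 0.30 (SE), adjusted p = 0.0228), where it lost its call without control mouse 1 or control mouse 3. Cnn3, an actin-binding calponin, Cyp4f18, a cytochrome P450, and the unnamed gene model Gm43305 fell with log2 fold changes of -2.41, -2.54 and -2.03. Ercc6l2, a DNA repair gene, was at 14.2 and 0 CPM in control mice 2 and 3 and 70.2, 253 and 241 CPM in the stress mice. Ercc6l2 rests on 3 and 0 UMIs in control mice 2 and 3 against 4, 38 and 33 in the stress mice, so no fold is given. It passed the filter on low counts only through the stress mice, where it is high. Its passing in all 9 alternatives that could be run is therefore no support for a change. Ankrd33b, an ankyrin repeat gene, Basp1, a membrane-attached signaling protein gene, the forkhead gene Foxn2 and the unnamed gene ENSMUSG00000079800 rose with log2 fold changes from 1.87 for Ankrd33b to 2.43 for ENSMUSG00000079800. In control mouse 1, outside the fit, Ercc6l2 and these 4 genes were at 162 to 243 CPM from 2 or 3 UMIs each, above both other control mice. Cnn3 lost its call without control mouse 2, and Cyp4f18, Basp1, Foxn2, ENSMUSG00000079800 and Gm43305 without control mouse 2 or control mouse 3. Ankrd33b lost it without control mouse 3, and Ankrd33b and Gm43305 without stress mouse 2 or stress mouse 3. With all 6 mice Ankrd33b, Basp1, Foxn2 and ENSMUSG00000079800 were lost, Foxn2 also without the filter on low counts, and Gm43305 with RLE normalization.

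B cell identity genes did not pass in B-like cells. Of 17 tested core genes, 16 had log2 fold changes below 0 (median -0.47) and 10 were lower in every stress mouse than in both control mice. Over all genes tested, 1276 of 2657 had log2 fold changes below 0 and 18.9% were lower in every stress mouse. Cd79a was at 1528 and 1722 CPM in control mice 2 and 3 and 1615, 1017 and 1244 CPM in the stress mice (adjusted p = 0.594). Ms4a1 was at 697 and 475 CPM in control mice 2 and 3 and 491, 538 and 607 CPM in the stress mice, and Ighm at 2035 and 1722 CPM in control mice 2 and 3 and 1035, 1715 and 1925 CPM in the stress mice. For all 3 genes stress and control mice overlapped. Summed over the 20 core genes, the level was 15839 to 17662 CPM in control mice 2 and 3 and 10688 to 12320.3 CPM in stress mice, without overlap. Bank1 did not pass (log2 fold change -0.78 ± 0.24 (SE), adjusted p = 0.0672), but did without stress mouse 1 (adjusted p = 0.0286), as did Cd37 (log2 fold change -1.02, adjusted p = 0.0234). Without control mouse 3, Cr2 was the 1 core gene called, as lower. No MHC class II gene passed among 9 tested (median -0.38), and Cd74, the invariant chain, was at 7809 and 8775 CPM in control mice 2 and 3 and 5932, 5483 and 5225 CPM in the stress mice (adjusted p = 0.153). None of 4 interferon response genes passed.

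Markers of other cells were mostly low in the B-like sums. The 7 conventional dendritic cell markers summed to 22.1 to 23.7 CPM in control mice 2 and 3 and 59.8 to 73.2 CPM in stress mice, with Xcr1, Clec9a, Cd209a and Ccl22 at 0. Endothelial markers summed to 171 to 221 and 113 to 139 CPM, and tumor markers to 42.7 to 44.2 and 17.6 to 33.2 CPM. The 8 pDC markers, which include Tcf4 and the B cell core gene Ly6d, summed to 2616 to 4009 and 1948 to 2539 CPM, with Siglech, Ccr9, Cox6a2 and Klk1 at 0. These 4 lists did not overlap between the groups, and their part in the changes was not tested. All 5 hepatocyte markers were at 0, and 5 of 8 T and NK cell markers were. B-like cells had a median of 2118 UMIs in control mouse 2 and 2051 in control mouse 3, against 1986, 3993 and 4933 in stress mice 1, 2 and 3, and the part of depth was not tested.

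Plasma-like cells gave fewer calls. Control mice 1 and 3 (11 and 17 cells) were set against the 3 stress mice (17, 28 and 54 cells), and control mouse 2, with 4 cells, was left out. Of 1974 genes tested, 18 passed (0.912%), 10 higher (0.507%) and 8 lower (0.405%), beside 249 (12.6%) at an unadjusted p under the threshold. Without overlap, 30.9% of the genes tested were higher and 6.84% lower in stress mice. None of the 10 genes of the plasma cell list and none of 10 tested immunoglobulin constant genes passed, with medians of -0.11 and -0.04 against 0.03 over all genes. Constant genes were called without control mouse 1 (Ighg2b, higher) and without stress mouse 3 (Ighg3 higher, Ighg1 and Ighm lower), and 7 of them without the filter on low counts, where 94 of 13686 genes were called. Derl3 did not pass (log2 fold change -1.07 ± 0.22 (SE), adjusted p = 0.0839), but was called lower with all 6 mice, with immunoglobulin genes left out and by DESeq2, which also called Igha lower. Jchain was at 16666 and 31499 CPM in control mice 1 and 3 and 19215, 26970.2 and 21489.6 CPM in the stress mice and Xbp1 at 673 and 749 CPM in control mice 1 and 3 and 769, 1037 and 916 CPM in the stress mice. The groups overlapped for Jchain, whereas for Xbp1 every stress mouse was above both control mice, by less than the test could call.

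Tsc22d3 fell in plasma-like cells as it did in B-like cells. It was at 589 and 426 CPM in control mice 1 and 3 and 191, 126 and 84.6 CPM in the stress mice, and both control mice stood above all stress mice (log2 fold change -2.23 ± 0.31 (SE), adjusted p = 0.0125). Control mouse 2, outside the fit, was at 26.7 CPM from 1 UMI, below every stress mouse, and with all 6 mice the call was lost (adjusted p = 0.183), as it was without control mouse 1, control mouse 3 or stress mouse 2. Herpud1 and Edem2, which work in the disposal of misfolded proteins from the endoplasmic reticulum, both fell, Herpud1 with a log2 fold change of -1.31 (adjusted p = 0.0115) and Edem2 with one of -1.10 (adjusted p = 0.037). Herpud1 was at 1611 and 1407 CPM in control mice 1 and 3 and 828, 708 and 667 CPM in the stress mice. Nfkbia, the inhibitor of NF-kappa-B, and H2-K1, a classical MHC class I chain with close copies, fell with -1.44 and -1.36. All 4 of these genes lost their call without control mouse 1, control mouse 3 or stress mouse 2. Edem2, Nfkbia and H2-K1 also lost it without stress mouse 1, and Edem2 and Nfkbia without stress mouse 3. With all 6 mice Herpud1 and Nfkbia were lost, and without the filter on low counts Edem2.

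The cytosolic chaperones Hsp90aa1 and Dnaja1 rose in plasma-like cells. Hsp90aa1 was at 72.1 and 129 CPM in control mice 1 and 3 and 844, 447 and 415 CPM in the stress mice (log2 fold change 2.10 ± 0.38 (SE), adjusted p = 0.048) and Dnaja1 at 120.2 and 59.3 CPM in control mice 1 and 3 and 759, 407 and 394 CPM in the stress mice (log2 fold change 2.35 ± 0.41 (SE), adjusted p = 0.0371). For both, every stress mouse stood above both control mice, and both lost their call without control mouse 1, control mouse 3 or stress mouse 2, Hsp90aa1 also with all 6 mice. The V gene Igkv12-41 was at 373 and 124 CPM in control mice 1 and 3 and at 0, 4.07 and 0 CPM in the stress mice. Ighv1-80 was at 0 in the controls and at 106, 126 and 225 CPM in the stress mice. Each passed the filter on low counts only through the group where it was high, so these calls lend no support to a change. No V gene led in more than 4 plasma-like cells of any mouse, and the part of which cells were sampled was not tested. Igkv12-41 lost its call without control mouse 1 or stress mouse 2, and Ighv1-80 without control mouse 1, control mouse 3 or stress mouse 2. The B-like and plasma-like fits shared 10 called genes, 12.7% of the 79 and 55.6% of the 18, namely Tsc22d3, Plxdc2, Hsp90aa1, Rpl10 and the 6 genes raised in every class. In the plasma-like fit Cdk8, Gm19951 and Rpl10 lost their call without stress mouse 2 (edgeR, adjusted p = 0.0529, 0.0542 and 0.105). Cdk8, Gm19951 and Rpl10 also lost it without control mouse 1 or control mouse 3. Camk1d, Cmss1 and Lars2 lost it without control mouse 3, so that Gphn alone of the 6 genes raised in every class kept its call there.

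In the pDC-like cells, which were too few per control mouse to test, Tsc22d3 was at 134, 799.5 and 423 CPM in the control mice and 353, 197 and 95 CPM in the stress mice. The groups overlapped, with control mouse 1 resting on 2 cells. Over the whole class Tsc22d3 was at 384, 359.7 and 489.7 CPM in the control mice and 218, 114 and 80.3 CPM in the stress mice, every stress mouse below every control mouse, and did not pass (log2 fold change -1.58 ± 0.36 (SE), adjusted p = 0.097). On the whole class it did pass without the filter on low counts (adjusted p = 2.73e-06) and with DESeq2 (adjusted p = 0.00571). It also passed with the replicate number as a block (log2 fold change -1.64, edgeR, adjusted p = 0.0328).

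Whether stress changed the B cell class differently from the other lymphocytes and antigen-presenting cells was tested as the difference between the stress effects. Against NK/T cells, 1 of 8780 genes passed (0.0114%), and against dendritic cells 4 of 9403 (0.0425%), 1 with a higher (0.0106%) and 3 with a lower stress effect in B cells (0.0319%), beside 542 (6.17%) and 625 (6.65%) at an unadjusted p under the threshold. The gene against NK/T cells was Malat1, a nuclear long noncoding RNA (chr19:5795690-5802672). In these tests B cells stands for sums over the whole class, of which B-like cells held 18.1% of the UMIs. In the class Malat1 was at 6497, 7706 and 6766 CPM in the control mice and 16197, 12473 and 17703 CPM in the stress mice, and in NK/T cells at 5892, 5198 and 6545 and 6169.7, 4818 and 7461 CPM. All stress mice were above all control mice in the class, while the groups overlapped in NK/T cells (difference of log2 fold changes 1.14 ± 0.11 (SE), adjusted p = 0.000845). Without called doublets the difference was 1.06 and did not pass (adjusted p = 0.348). The change of Tsc22d3 was not distinguishable from that in NK/T cells (difference -0.51 ± 0.30, adjusted p = 0.868) or in dendritic cells (difference -0.58 ± 0.30, adjusted p = 0.765).

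Against dendritic cells, Slpi, a secreted inhibitor of serine proteases, had a higher log2 fold change in B cells, with a difference of log2 fold changes of 2.20 (adjusted p = 0.00785). It was at 2420.3, 2679 and 2596 CPM in the B cells of control mice and 3229, 5301 and 12441 CPM in those of stress mice, which did not overlap. The signaling factor Stat4, the actin-binding peptide gene Tmsb4x and the calcium-binding protein gene S100a4 had lower log2 fold changes in B cells than in dendritic cells. S100a4 was at 80.7, 96.4 and 98.8 CPM in the B cells of control mice and 32.8, 44.4 and 32.9 CPM in those of stress mice, against 428, 621 and 614 and 832, 789 and 863 CPM in dendritic cells, so that the stress mice were the lower in B cells and the higher in dendritic cells. None of the 4 genes passed without stress mouse 2 or without stress mouse 3, when 0 genes were called in either case, beside 570 and 437 genes at an unadjusted p under the threshold. Without called doublets the difference was 4.33 for Slpi (adjusted p = 0.216), -1.19 for S100a4 (adjusted p = 0.604) and -1.74 for Stat4 (adjusted p = 0.292).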

How the data were processed

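scRNA-seq was done by the authors with the 10x Genomics Chromium system on tumors of 3 control and 3 stress mice. The deposited values are whole UMI counts, 1 matrix per mouse, which the labels credit to Cell Ranger with mm10 and which were not normalized. The gene annotation and the counting settings were not stated. Their annotation table, from Seurat with Harmony integration, gave each cell its mouse and class. The study's methods state that doublets were removed with Scrublet. Scrublet, run again here per library in scanpy 1.11.5 (Python 3.11.15), still called 17 of the 457 B cells (3.72%), which were kept except in an alternative.

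Sums of UMIs of the B cell class over each mouse entered edgeR's quasi-likelihood test (version 4.0.16, R 4.3.3), after filterByExpr and TMM scaling, p-values being adjusted after Benjamini-Hochberg and called below 0.05. Differences between classes were tested as interactions with the mouse as a block. Shares were compared over mice with exact permutation tests. The class was divided by Leiden clustering (resolution 0.4, 15 principal components, 2000 variable genes) without immunoglobulin, mitochondrial and called genes. Resolutions of 0.2 and 0.8 and keeping the called genes left 98.7%, 100% and 98.7% of cells under the same name. Groups of cells were fitted in mice with at least 10 of them. RLE normalization, no filter on low counts, DESeq2 1.42.0, other choices of cells and leaving out each mouse were alternatives. The edgeR fit of the whole class and that of the difference to NK/T cells were tried on simulated counts with known changes. The fits of B-like and plasma-like cells were not. Each annotated mouse held 149558935 to 187728350 UMIs, and 457 B cells limit the precision of every value here.

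The members and gene lists were chosen with earlier results of these data known. The text names the B cell core genes, list members past the threshold, all genes called in a fit when 30 or fewer and otherwise the 25 with the largest change whose groups do not overlap, the 15 genes with the highest ratio to other classes and the genes of the interaction tests. Jun, Ier2, Hsp90aa1 and Hspe1 in B-like cells, Plac8, Rpl10, Apoe, the mitochondrial genes of B-like cells, the leading genes of the groups of cells and the V genes were picked after their values were seen. Gene positions and promoters were taken from GRCm38.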

Additional observations from a re-analysis of the deposited data

Results flagged for a closer look

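Malat1 was flagged because its response to stress differed between the whole B cell class and NK/T cells by 1.14 on the log2 scale (edgeR, adjusted p = 0.000845). Its call held in 8 of 9 alternatives and was lost without called doublets, where the difference was 1.06 and the adjusted p 0.348. In plasma-like cells Malat1 was at 11051 and 6575 CPM in control mice 1 and 3 and at 20043, 18086 and 21067 CPM in the stress mice, and in pDC-like cells at 4744, 12977 and 7151 CPM in the 3 control mice and 19173, 17058 and 16599.6 CPM in the stress mice. No value for B-like cells is given, and the part of each group of cells in the difference was not tested.

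Against dendritic cells, 4 genes were flagged for a different response to stress (edgeR). Slpi differed by 2.20, with levels in dendritic cells of 44.2, 16.3 and 44.9 CPM in control and 9.24, 12.9 and 32.6 CPM in stress mice (adjusted p = 0.00785). Within the B cell class it was at 5447, 37392 and 5831 CPM in the plasma-like cells of the 3 control mice and 2239, 9132 and 17614 CPM in those of the stress mice, where the groups overlapped. Tmsb4x differed by -0.998, with 4774, 10615 and 5624 CPM in control and 4716, 8184 and 5583 CPM in stress mice in B cells and 8731, 18116 and 12893 CPM in control and 18459, 25523 and 24563 CPM in stress mice in dendritic cells (adjusted p = 0.00785). S100a4 differed by -1.91 (adjusted p = 0.0136). Stat4 differed by -1.85, with 61.7, 256 and 149 CPM in control and 82.1, 114 and 56.2 CPM in stress mice in B cells and 49.6, 97.3 and 89 CPM in control and 145, 152 and 149 CPM in stress mice in dendritic cells (adjusted p = 0.0462). Of the 9 alternatives, Slpi held its call in 5, Tmsb4x in 6, S100a4 in 4 and Stat4 in 3.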

How the results depend on the processing

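The class had 20 to 114 B cells per mouse, and the number of genes past the threshold moved with most choices. Among single genes, 1 value reversed, that of Dnajb1 in B-like cells only (-0.906). The causes of these moves were not tested.

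For the whole class, 28 genes passed (edgeR), and 6 to 40 did when each mouse was left out in turn. The count was 306 without a filter on low counts, 46 with DESeq2 and 10 without called doublets. It was 6 with cells carrying 3 or more of the 9 markers and 5 with 20 cells per mouse. It was 79 with B-like, 18 with plasma-like and 8 with both kinds of cells only, and 13 without the cells with tumor markers. The 6 genes called with 3 or more markers were those raised in every cell class, as were the 6 called without control mouse 3. For B-like cells, 79 genes passed, 26 to 153 when each mouse was left out, 42 with all 6 mice and 32 with DESeq2. Leaving out control mouse 2 gave 27, control mouse 3 gave 43, stress mouse 1 gave 153, stress mouse 2 gave 43 and stress mouse 3 gave 26. For plasma-like cells, 18 passed, 2 to 24 when each mouse was left out (7 if control mouse 1 was absent, 2 if control mouse 3 was and 6 if stress mouse 2 was), 94 without a filter and 29 with DESeq2. Against NK/T cells, 1 gene passed, 1 to 2 when each mouse was left out, 78 without a filter and 0 without called doublets (edgeR, 440 at an unadjusted p under the threshold). Against dendritic cells, 4 passed, 0 to 15 when each mouse was left out (12 and 15 if control mouse 1 or 2 was absent, 1 if control mouse 3 or stress mouse 1 was, and 0 if stress mouse 2 or 3 was), 91 without a filter and 1 without called doublets. RLE normalization gave 28 genes for the class, 78 for B-like, 20 for plasma-like, 1 against NK/T and 4 against dendritic cells.

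The mice were not treated as pairs, since no source says that a replicate number marks a shared batch. The deviations of same-numbered mice correlated at -0.00393, 0.134 and 0.0381 in the class, and those of different-numbered mice at -0.123 to 0.0657. In B-like cells control mouse 2 and stress mouse 2 correlated at 0.138. So few mice cannot decide whether a batch was shared. With the replicate number as a block, 54 genes passed in the class, 299 in B-like and 26 in plasma-like cells. In B-like cells these included the core genes Bank1, Cd37 and Ebf1 (lower) and Cd22 (higher), and Cd74 and H2-Aa (lower). No share passed in an exact paired permutation test, which with 3 pairs cannot give less than p = 0.25.

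In the shares, 5 differences turned in sign. The lambda difference was -0.127 without the pDC-like cells, an alternative added after the data were seen. When each mouse was left out, the difference ranged over -1.19 to 3.78 percentage points for IgD, -2.64 to 23.1 for plasma-like cells, -5.87 to 26.5 for Igha in plasma-like cells and -0.84 to 0.18 for B-like cells among immune cells (main value -0.323). The all-cell, immune, lymphocyte, B-like and pDC-like differences kept their direction in all alternatives run, over 0.0606 to 0.451, 0.069 to 0.862, -11.7 to -1.43, -35.2 to -4.42 and 7.18 to 15.4 when each mouse was left out.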

Other observations

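Leading genes of the groups of cells, given as a description, included some not usually tied to B cells. B-like cells had Apoe, a lipid carrier better known from macrophages, in 41% of cells at 711 CPM, against 21.1 CPM in the rest of the class, summed over mice. Its level was 289 and 629 CPM in control mice 2 and 3 and 1562, 691 and 951 CPM in the stress mice, and it rose in the B-like fit (log2 fold change 1.30 ± 0.34 (SE), adjusted p = 0.0281, edgeR). The call was lost without control mouse 2, without stress mouse 3, with DESeq2 and with all 6 mice (adjusted p up to 0.474), while control mouse 1, with 4 B-like cells, was at 2188 CPM. Satb1, a chromatin organizer, was at 1037 CPM in B-like cells and 85.5 CPM in the rest of the class. Plasma-like cells were led, beside antibody genes, by Trp53inp1 and Eaf2, found in 96.2% and 93.9% of them.

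The cells with tumor markers had Hmga2 and Slc2a3 in all 34 cells, with Igkc in 85.3% and Jchain in 52.9% of them after thinning. Siglech, Tnfrsf17 and Ighd had no UMI in any of these thinned cells.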
